A study of Mus musculus with 4 samples.

Results

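The cathepsins and legumain are the proteases of endosomes and lysosomes that cut proteins into peptides, and 10 of their genes were followed here: Ctsa, Ctsb, Ctsc, Ctsd, Ctsf, Ctsh, Ctsl, Ctss, Ctsz and Lgmn. They were taken by gene symbol from a table of 32246 genes, each symbol matched 1 row, and all 10 passed the filter on low values. The cells were mononuclear cells from a Percoll gradient, prepared from spinal cords of C57BL/6 animals in which experimental autoimmune encephalomyelitis (EAE) had been induced, a model of multiple sclerosis in which immune cells attack myelin. The treated mice received microPEP155 (P155), a micropeptide made from the Mir155hg transcript, and the control mice received a scramble micropeptide (Scr). Both groups were immunized for EAE and both were treated every other day starting on day 8 after immunization, and no untreated or healthy group was part of the comparison. Each group had 2 libraries, numbered 4 and 5, and the labels give neither the age of the animals nor whether a library came from 1 mouse or a pool. P-values therefore measure the spread between these libraries, which may be technical.

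In antigen-presenting cells, proteins taken up from outside are delivered to acidic endosomes, where cathepsins and legumain cut them and also trim the invariant chain, the protein encoded by Cd74 that blocks the peptide groove of MHC class II molecules. The peptides left in the groove are shown to CD4+ T cells, which in EAE recognise peptides of myelin. Microglia, macrophages and dendritic cells are known for high levels of these proteases, and neural cells also carry lysosomes and several of the same enzymes.

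On average 9 of the 10 genes had lower levels in P155 than in Scr libraries, and Ctsf was higher, but no difference was larger than the spread between libraries by the test. Levels are log2(normalized reads + 1), where normalized reads are reads per gene divided by 1 size factor per library. The median log2 difference of the 10 genes (P155 minus Scr) was -0.44, against -0.03 over all 27079 genes tested and 0.06 over the 3599 genes that were at least as abundant as the lowest of the 10. By limma, 0 of the 10 genes had an adjusted p under 0.05, where 0% of all genes did. At an unadjusted p under 0.05 there were also 0 of the 10, against 4.35% of all genes, and limma-voom on recovered reads gave 0 by either threshold. The adjusted p-values lay between 0.861 and 0.870 (limma), and the 95% interval of every one of the 10 differences included 0. A log2 difference below 0 was found for 53.4% of all genes tested and for 39.9% of the genes as abundant as these. In bulk RNA, fewer cells of a type and less RNA per cell cannot be told apart.

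Promoter sequences of these genes are given to show which share the E-box CACGTG, the core of the element that TFEB, the transcription factor of lysosomal genes, is known to bind. RefSeq windows (GRCm38.p6, from 250 bases before to 50 after an annotated start) were matched for 8 of the 10 genes. A CACGTG, which reads the same on both strands, was present for 5 of these 8 genes, Ctsa, Ctsd, Ctsf, Ctsl and Lgmn, against 8.09% of 27025 genes and 7.15% of 32851 windows. The longer form GTCACGTG, which contains it and was sought on both strands, was present for 3 of the 8 genes, Ctsa, Ctsd and Lgmn, against 2.55% of genes and 2.25% of windows. Of the genes that lay lower in P155, Ctsa, Ctsd, Ctsl and Lgmn held the E-box and Ctsc, Ctss and Ctsz did not, no window was matched for Ctsb and Ctsh, and Ctsf, which lay higher, held it. A match is a description of the letters and not a site of binding. The window of Ctsd is shown because it holds 2 matches, 245 and 98 bases before the start, with GTCACGTG in capitals as read on either strand (chr7:142387778-142388077, minus strand).
Ctsd: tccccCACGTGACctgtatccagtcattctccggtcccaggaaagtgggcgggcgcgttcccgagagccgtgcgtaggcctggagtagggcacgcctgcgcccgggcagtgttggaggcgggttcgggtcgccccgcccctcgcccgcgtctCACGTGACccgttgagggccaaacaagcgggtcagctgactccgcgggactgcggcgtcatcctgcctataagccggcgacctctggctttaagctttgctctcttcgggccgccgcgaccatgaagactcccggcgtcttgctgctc
Ctsa and Lgmn each have 2 annotated starts, and in both genes the matches lay at the downstream start and not in the window of the upstream one. The matches of Ctsa, Ctsl and Lgmn, and the nearer match of Ctsd, lie inside the GENCODE M21 bounds of their genes. The stretches around the E-box of the other 4 genes, with CACGTG in capitals, let its surroundings be compared. They lie at chr2:164833731-164833796 (plus strand) for Ctsa, chr19:4855056-4855121 (plus) for Ctsf, chr13:64370721-64370770 (minus) for Ctsl and chr12:102439106-102439171 (minus) for Lgmn.
Ctsa: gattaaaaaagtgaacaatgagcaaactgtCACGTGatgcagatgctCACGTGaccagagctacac
Ctsf: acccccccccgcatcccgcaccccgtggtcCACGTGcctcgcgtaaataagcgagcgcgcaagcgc
Ctsl: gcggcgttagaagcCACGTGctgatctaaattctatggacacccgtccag
Lgmn: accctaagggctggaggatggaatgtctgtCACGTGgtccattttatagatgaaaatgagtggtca
The window of Ctss is shown because it differs from these. It holds a pair of GAAA letters with 2 bases between them, the core of interferon response elements, 21 bases before the start, a motif present in 3.99% of genes and 3.44% of windows, and GAGGAA, the core bound by the myeloid factor PU.1, 164 bases before the start and again, on the other strand, at the start itself, a motif present in 31.3% of genes and 28.3% of windows. Both motifs were sought on both strands and are in capitals, at chr3:95526536-95526835 (plus strand). Of the 8 genes, the GAAA pair was present for Ctss alone and GAGGAA for 2, Ctss and Ctsc, a share no higher than that over all genes.
Ctss: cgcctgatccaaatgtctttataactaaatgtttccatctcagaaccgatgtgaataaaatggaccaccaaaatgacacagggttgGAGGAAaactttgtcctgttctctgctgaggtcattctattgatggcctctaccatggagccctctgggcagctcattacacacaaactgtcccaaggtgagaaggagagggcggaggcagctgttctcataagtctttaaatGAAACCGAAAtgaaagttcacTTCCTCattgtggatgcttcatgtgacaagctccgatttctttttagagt

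Of the endopeptidases, which cut within a protein chain, cathepsin S had the most negative difference. Ctss encodes the cysteine protease that trims the invariant chain in antigen-presenting cells and that stays active at neutral pH. It lies on chromosome 3 (95526786 to 95556403, plus strand, mm10, GENCODE M21). Its level was 15.22 and 14.63 in P155 replicates 4 and 5, against 15.24 and 16.12 in Scr replicates 4 and 5. The groups did not overlap, but P155 replicate 4 and Scr replicate 4 were only 0.016 apart, and the gap came from a low P155 replicate 5 and a high Scr replicate 5. The log2 difference was -0.76 (SE 0.38, 95% interval -1.76 to 0.25, limma adjusted p = 0.861). Ctsb, an abundant cysteine protease on chromosome 14 (63122462 to 63145923, plus strand), had the same order of libraries. It stood at 16.34 and 16.00 in P155, against 16.36 and 16.98 in Scr (log2 difference -0.50, SE 0.29, limma adjusted p = 0.861). Again the groups did not overlap, with a gap of 0.018 between the nearest libraries.

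Ctsd, the aspartic endopeptidase of lysosomes, lies on chromosome 7 (142375911 to 142388038, minus strand). Its level was 16.69 and 16.21 in P155 replicates 4 and 5, against 16.50 and 17.36 in Scr replicates 4 and 5. The groups overlapped, because P155 replicate 4 stood above Scr replicate 4, and the log2 difference was -0.48 (SE 0.37, limma adjusted p = 0.861). Ctsl, on chromosome 13 (64359337 to 64370890, minus strand), is the protease that trims the invariant chain in the mouse thymic cortex. It varied little, with 13.09 and 12.81 in P155 and 13.11 and 13.23 in Scr, a log2 difference of -0.22 (95% interval -0.67 to 0.23). Its groups did not overlap, by 0.015 between the nearest libraries.

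Legumain cuts after asparagine, brings other cathepsins to their mature form, and in human antigen-presenting cells is known to cut myelin basic protein. Lgmn, on chromosome 12 (102394084 to 102439813, minus strand), stood at 14.22 and 13.84 in P155, against 14.11 and 14.37 in Scr. The groups overlapped, and the difference was -0.21 (95% interval -0.76 to 0.34). Ctsf, whose window holds the E-box, encodes cathepsin F, a further cysteine endopeptidase (chromosome 19, 4855130 to 4860918, plus strand). It was the 1 gene of the 10 with the opposite order, at 11.71 and 11.79 in P155, against 11.62 and 11.55 in Scr. Both P155 libraries lay above both Scr libraries, with a small log2 difference of 0.16 (SE 0.15, 95% interval -0.22 to 0.55, limma adjusted p = 0.861).

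The exopeptidases, which remove residues from the ends of peptides, held Ctsz, whose fitted difference was nearly the same as that of Ctss, and without P155 replicate 5 or without Scr replicate 5 that of Ctss was the larger. Ctsz, a carboxypeptidase on chromosome 2 (174427493 to 174439039, minus strand), stood at 13.84 and 13.17 in P155, against 13.72 and 14.82 in Scr. Its log2 difference was -0.76 (SE 0.45, 95% interval -1.94 to 0.41, limma adjusted p = 0.861), yet the groups overlapped and Scr replicate 5 alone was 2.14 times Scr replicate 4 in normalized reads. Ctsa, a serine carboxypeptidase that also shields the lysosomal enzymes neuraminidase and beta-galactosidase, lies on the same chromosome (164832873 to 164841032, plus strand). It stood at 13.39 and 13.07 in P155, against 13.39 and 14.26 in Scr, a difference of -0.60 (SE 0.33, limma adjusted p = 0.861). The groups did not overlap by a margin of 0.0018 between the libraries numbered 4.

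Ctsc encodes dipeptidyl peptidase 1, which activates granule serine proteases of cytotoxic cells, neutrophils and mast cells (chromosome 7, 88278085 to 88310888, plus strand). Its level was 12.19 and 11.58 in P155, against 12.01 and 12.59 in Scr (log2 difference -0.41, SE 0.31). Ctsh, an aminopeptidase on chromosome 9 (90054152 to 90076089, plus strand), stood at 12.31 and 11.40 in P155, against 11.98 and 12.43 in Scr (log2 difference -0.36, SE 0.36). In both genes the groups overlapped, and P155 replicate 4 stood above Scr replicate 4.

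**Figure D1:**
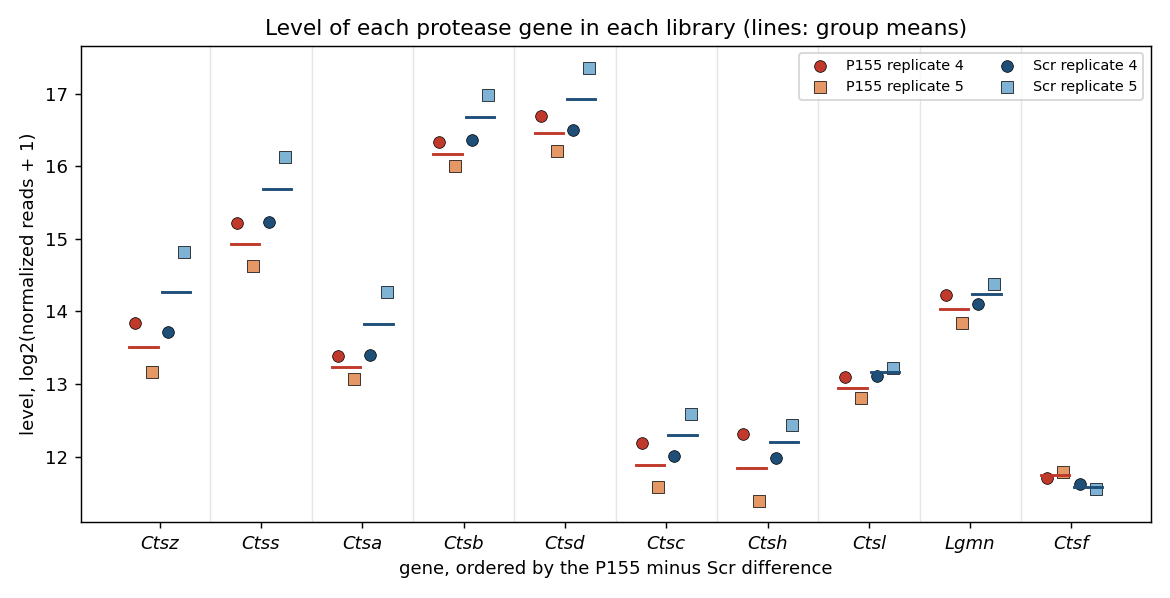
Level of the 10 protease genes in each library, as log2(normalized reads + 1) on the y axis, with genes on the x axis from the most negative to the most positive difference; points are libraries and lines are means of the 2 libraries of a group. In 9 of the 10 genes Scr replicate 5 is the highest point and P155 replicate 5 the lowest, and Ctsf runs the other way.

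The same order of libraries recurred across the family. Scr replicate 5 was the highest and P155 replicate 5 the lowest library in 9 of the 10 genes, an order found in 16.1% of all genes tested and in 12.6% of the genes as abundant as these. P155 replicate 4 minus Scr replicate 4 was between -0.018 and 0.33 for the 10 genes, with a median of 0.099 and 6 of the 10 genes above 0, against 52.1% of all genes. P155 replicate 5 minus Scr replicate 5 was between -1.65 for Ctsz and -0.42 for Ctsl in the 9 genes other than Ctsf, and 0.24 for Ctsf, with a median of -1.02 over the 10 and 9 genes below 0, against 52% of all genes. Over all genes tested, the medians of these differences were 0.016 for the libraries numbered 4 and -0.040 for the libraries numbered 5. The labels do not say that a number marks a shared litter, batch or day, so these are differences between single libraries. In 4 of the 10 genes (Ctsa, Ctsb, Ctsl and Ctss) every P155 library lay below every Scr library, against 19.6% of all genes tested and 12.4% of those as abundant. In 1 gene, Ctsf, every P155 library lay above every Scr library, against 15.2% of all genes and 22.3% of those as abundant. In 9 of the 10 genes the gap between the libraries of at least 1 group was wider than the difference between group means. The median log2 difference of the 10 genes was -0.14 without Scr replicate 5 and -0.17 without P155 replicate 5. It was -0.72 without P155 replicate 4 and -0.76 without Scr replicate 4.

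**Figure D2:**
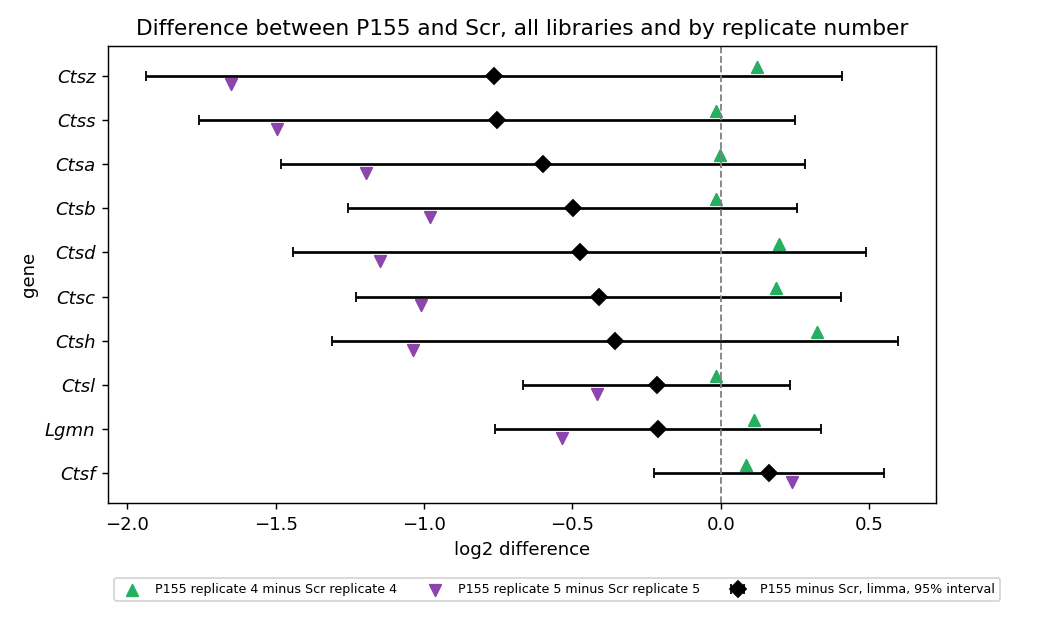
Log2 difference of each gene on the x axis, with genes down the y axis; diamonds are P155 minus Scr by limma with 95% intervals, and triangles are the differences between libraries with the same number. The intervals of all 10 genes include 0, and the triangles of the libraries numbered 4 sit between -0.018 and 0.33.

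Together the 10 genes took 0.545% and 0.415% of all reads in P155 replicates 4 and 5, against 0.532% and 0.848% in Scr replicates 4 and 5. Scr replicate 5 stood apart from the other libraries in other ways. Mitochondrial genes took 12.05% of its reads against 8.54% to 9.68% in the others, and ribosomal protein genes 3.06% against 1.80% to 1.94%. P155 replicate 5 had the fewest reads, 30777553, against 63862745 to 64702948 in the other 3 libraries. The lowest read number behind any value of the 10 genes was 1595, for Ctsh in P155 replicate 5, where counting error alone is 2.5% of the value. The part of the mitochondrial and ribosomal shares in the result was not tested.

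Set against gene length, cathepsin D and cathepsin S were the most abundant transcripts of the family. Ctsd averaged 38670 ± 9081 normalized reads per kb of exons in P155 and 55389 ± 22666 in Scr (SD, n = 2 each). Ctss averaged 23376 ± 6693 in P155 and 40471 ± 17038 in Scr. On the mean over the 4 libraries, Ctsd ranked 23 and Ctss 34 among 18157 protein-coding genes. Ctsb came next with 12277 ± 2007 per kb in P155 and 17647 ± 5347 in Scr, followed by Ctsz with 8290 ± 2701 in P155 and 14709 ± 7537 in Scr, and Lgmn with 7259 ± 1364 in P155 and 8366 ± 1077 in Scr. The other 5 genes averaged between 646 and 2638 per kb over all libraries, in the order Ctsa, Ctsl, Ctsh, Ctsc and Ctsf. Neighbours in this order overlapped in their ranges over the 4 libraries, except that Lgmn stood above Ctsa and Ctsa above Ctsl in every library pair. The order was the same in 3 of the 4 libraries, and in P155 replicate 5 Ctsf, at 702 per kb, stood above Ctsh at 598 and Ctsc at 527. Exon length counts every annotated transcript, 6051 bases for Ctsb and 1358 for Ctss. With coding length, 1017 bases for Ctsb and 1023 for Ctss, Ctsb ranked above Ctss and Ctsl above Ctsa.

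**Figure D3:**
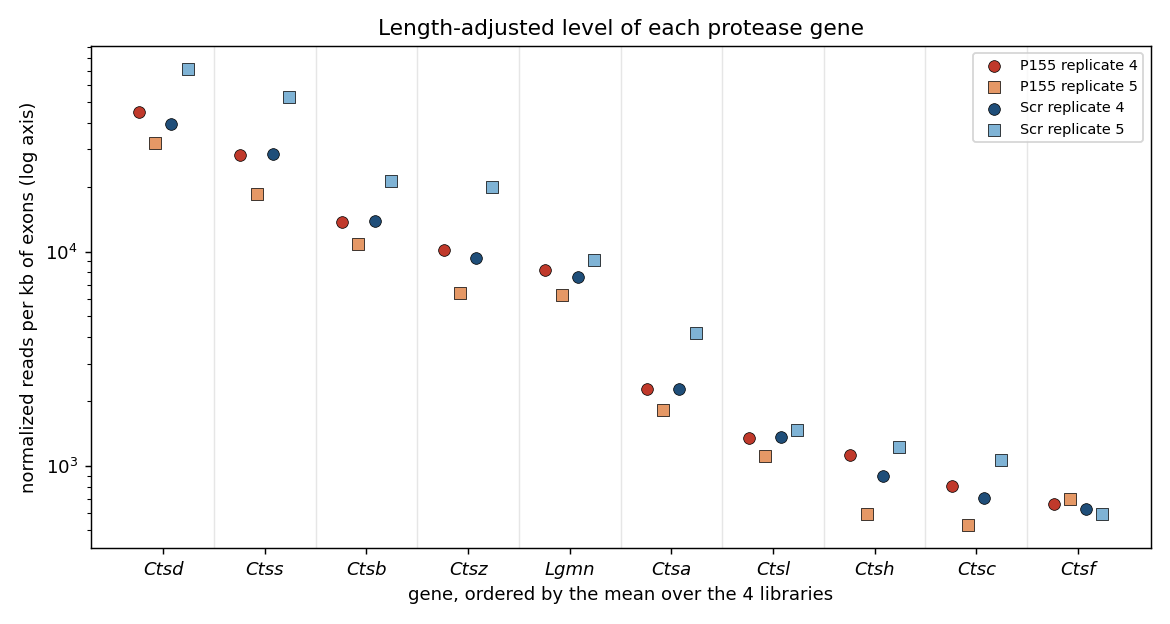
Normalized reads per kb of exons on a log y axis for the 10 genes on the x axis, ordered by their mean over the 4 libraries; points are single libraries. Ctsd spans 32248 to 71416 and Ctsf 594 to 702, and the other 8 genes lie in order between these in their means.

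The most abundant members held similar shares of the family in all 4 libraries, and some less abundant ones did not. Ctsd held 40.4% and 40.7% of the family's reads per kb in P155 replicates 4 and 5, against 37.7% and 39.0% in Scr replicates 4 and 5. Ctss held 25.2% and 23.5% in P155, against 27.2% and 28.7% in Scr. Lgmn held 7.37% and 7.95% in P155, against 7.28% and 4.99% in Scr, and Ctsf 0.595% and 0.886% in P155, against 0.599% and 0.325% in Scr. The log2 ratio of Ctsb to Ctsd varied by 0.23 over the 4 libraries and that of Ctsh to Ctsc by 0.30. Other pairs varied more: the log2 ratio of Ctss to Lgmn by 0.96, that of Ctss to Ctsl by 1.08, that of Ctsz to Ctsl by 1.23 and that of Ctss to Ctsf by 1.73. The log2 ratio of Ctss to Ctsf was 3.51 and 2.84 in P155, against 3.61 and 4.57 in Scr, with replicates numbered 4 only 0.10 apart. The groups cannot overlap in this ratio, because Ctss lay lower and Ctsf higher in P155 without overlap, so it is no separate result.

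The preparations held neural as well as immune RNA. Summed over 8 genes, oligodendrocyte markers had 777822 and 829336 normalized reads in P155, against 732057 and 753522 in Scr. Neuron markers, 10 genes, had 456426 and 389760 in P155 and 400161 and 302412 in Scr. Astrocyte markers, 8 genes, had 427603 and 413007 in P155 and 427999 and 399317 in Scr. The sums of 12 pan-leukocyte markers were far lower, 30932 and 20289 in P155 and 37293 and 49010 in Scr. No pan-leukocyte, microglia, monocyte, dendritic, B cell, T cell, neutrophil, neuron, oligodendrocyte, astrocyte or endothelial marker was listed at 0 in any library. Of 7 mast cell markers, 6 were at 0 in at least 1 library.

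Several marker lists had an order of libraries close to that of the protease genes. The mean of the 10 genes, as a deviation from the mean of all 4 libraries, was 0.020 and -0.43 in P155 replicates 4 and 5, against -0.078 and 0.49 in Scr replicates 4 and 5. Disease-associated microglia markers, 10 of 11 lower in P155, gave -0.038 and -0.55 in P155, against -0.13 and 0.72 in Scr. Their summed normalized reads were 224564 and 162361 in P155 and 174471 and 244745 in Scr. A large part of these sums was Apoe, with a mean of 117927 normalized reads, the 1 marker of this list that was higher in P155 (log2 difference 0.22). T cell markers, 10 of 10 lower, gave -0.035 and -0.83 in P155, against -0.039 and 0.91 in Scr, and dendritic cell markers, 9 of 10 lower, gave -0.056 and -0.44 in P155, against -0.26 and 0.76 in Scr. P155 replicate 4 minus Scr replicate 4 was 0.091 for disease-associated microglia, 0.0041 for T cell and 0.21 for dendritic cell markers, and P155 replicate 5 minus Scr replicate 5 was -1.27, -1.74 and -1.20 in the same order. Microglia markers, 10 of 12 lower, gave -0.13 and -0.24 in P155, against -0.045 and 0.42 in Scr, with summed normalized reads of 49158 and 39406 in P155 and 51826 and 73710 in Scr. Summed T cell markers were 2566 and 1570 in P155 and 2530 and 5025 in Scr, and summed dendritic cell markers 3269 and 2927 in P155 and 2919 and 4535 in Scr.

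Monocyte and macrophage markers also had Scr replicate 5 highest and P155 replicate 5 lowest in their mean, but in another spacing, in which both P155 libraries were low. Only 5 of the 12 genes had that order themselves. In Chil3 and Ly6c2, P155 replicate 4 was lowest and Scr replicate 4 highest, so the mean mixes unlike orders. All 12 markers were lower, with means of -0.38 and -0.45 in P155, against 0.40 and 0.43 in Scr. Their summed normalized reads were 61490 and 43732 in P155 and 73775 and 121597 in Scr. Pan-leukocyte markers, 11 of 12 lower, gave -0.10 and -0.58 in P155, against 0.22 and 0.47 in Scr. B cell markers, 8 of 8 lower, gave -1.13 and -0.36 in P155, against 0.40 and 1.10 in Scr, and mast cell markers, 7 of 7 lower, gave -1.64 and -0.93 in P155, against 1.35 and 1.21 in Scr. Neutrophil markers, 10 of 10 lower, were spread most in the libraries numbered 4, with -2.01 and 0.41 in P155, against 1.71 and -0.12 in Scr. Neuron markers were higher in 9 of 10 (0.25 and 0.00 in P155, against 0.080 and -0.33 in Scr), oligodendrocyte markers in 5 of 8, astrocyte markers in 4 of 8 and endothelial markers in 1 of 7. By limma, 0 of the 124 marker genes passed, with 21 at an unadjusted p under 0.05, against 4.35% of all genes, and limma-voom gave 0 and 29, against 1072 of all 27079 genes at that unadjusted threshold. The part of cell makeup in the protease result was not tested.

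**Figure D4:**
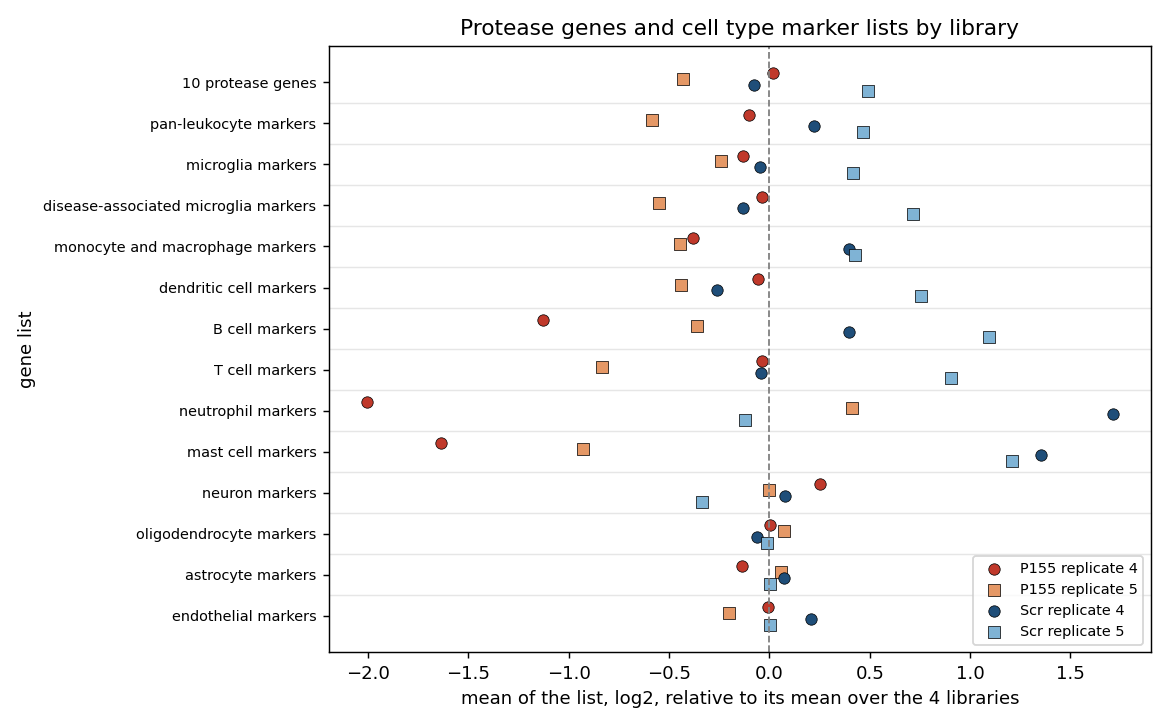
Mean log2 level of the 10 protease genes and of each marker list on the x axis, relative to the list's mean over the 4 libraries, with lists down the y axis and 1 point per library. For the protease genes and for microglia, disease-associated microglia and T cell markers the libraries numbered 4 lie closer together than the libraries numbered 5. For monocyte and macrophage markers P155 minus Scr is similar, -0.78 for the libraries numbered 4 and -0.88 for those numbered 5. They separate both P155 libraries, at -0.38 and -0.45, from both Scr libraries, at 0.40 and 0.43, as pan-leukocyte, B cell and mast cell markers do among others.

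Relative to marker genes, the direction of the protease genes depended on the marker list. Set against the mean of the microglia markers in the same library, 6 of the 10 genes were lower in P155, against 26% of all genes, and the median log2 difference was -0.072, while the median of all genes tested became 0.34. Set against pan-leukocyte markers, 2 of the 10, Ctss and Ctsz, were lower, against 15.6% of all genes, and the median was 0.24, with a median of 0.65 over all genes. Set against monocyte and macrophage markers, 0 of the 10 were lower, against 12.9% of all genes, and the median was 0.38, with a median of 0.79 over all genes. On that last scale Ctsf had a log2 difference of 0.99 (limma adjusted p = 0.0373), a threshold that 26.2% of all genes passed. For the other marker lists no limma fit was made. The median of the 10 was 0.14 against disease-associated microglia, 0.052 against dendritic cell and 0.42 against T cell markers. It was 1.05 against B cell, 1.15 against neutrophil and 2.12 against mast cell markers. The mast cell value rests on genes near the floor, because most of these markers were listed at 0 in a P155 library. Kit, the abundant one with a mean of 1590 normalized reads, had a log2 difference of -0.16. Against neuron (-0.70), oligodendrocyte (-0.52), astrocyte (-0.37) and endothelial markers (-0.23) the median of the 10 was negative. Each of these scales shifts every gene of a library alike, so the median of the 10 genes lay below the median of all genes on each, as on the deposited scale.

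The authors' deposited table called none of the 10 genes at an FDR under 0.05, where it called 0.53% of all its genes. The authors' deposited table gives an unadjusted p under 0.05, by a test it does not name, for 3 of the 10. These were Ctss with p = 0.0169 and an FDR of 0.558, Ctsa with p = 0.0288 and an FDR of 0.675, and Ctsb with p = 0.0455 and an FDR of 0.779 in the authors' deposited table. Among all genes of the authors' deposited table, 6.26% had such a p, and 4.27% had it with a lower level in P155.

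Among 86 other genes of the pathway, 74 were tested, and by limma 0 passed in either direction, with 6 at an unadjusted p under 0.05, against 4.35% of all genes, and limma-voom gave 0 and 7, against 1072 of all 27079 genes. Of the 74, 55 were lower and 19 higher in P155, and their median log2 difference was -0.31, against -0.03 over all genes tested. Among the pathway lists, the MHC class II genes that receive the peptides came closest to the protease genes in their highest and lowest libraries. All 9 were lower (median -0.69), and in all 9 Scr replicate 5 was the highest and P155 replicate 5 the lowest library, as in 16.1% of all genes tested. The same held for 10 of 10 T cell markers, which are not genes of this pathway. The invariant chain gene Cd74 stood at 15.11 and 14.39 in P155, against 15.14 and 15.68 in Scr (log2 difference -0.66, SE 0.33, limma adjusted p = 0.861). Its order of libraries was that of Ctsa, Ctsb, Ctsl and Ctss. H2-Ob, a chain of the class II modulator H2-O, was at 7.76 and 6.86 in P155, against 8.52 and 9.87 in Scr (unadjusted p = 0.0251, limma adjusted p = 0.861), and H2-DMb1, a chain of the peptide exchange factor, at 10.42 and 9.85 in P155 and 10.56 and 11.11 in Scr.

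The inhibitors of cathepsins were lower in 7 of 9 tested genes (median -0.35). Cst3, which encodes the secreted inhibitor cystatin C, was abundant, at 15.82 and 15.50 in P155, against 15.88 and 16.13 in Scr (log2 difference -0.35, limma adjusted p = 0.861). Serpina3g was at 9.17 and 8.59 in P155 and 9.59 and 9.62 in Scr (unadjusted p = 0.0466, limma adjusted p = 0.861), and Serpinb6a at 11.51 and 11.80 in P155 and 11.97 and 12.14 in Scr. The other cathepsin genes, 5 tested of 13, were all lower on average (median -0.86), but not all in the order of the 10 genes. Ctse was at 6.96 and 7.76 in P155, against 9.46 and 7.61 in Scr, and Ctsg at 3.36 and 6.17, against 7.97 and 5.69. In both the groups overlapped, with P155 replicate 4 lowest and Scr replicate 4 highest. Ctsk, the collagen-cutting cathepsin of osteoclasts, was at 9.65 and 9.95 in P155, against 10.44 and 10.30 in Scr, so that both P155 libraries were low (unadjusted p = 0.0371, limma adjusted p = 0.861). Ctsw, a cathepsin of cytotoxic lymphocytes, was at 8.01 and 7.32 in P155 and 8.02 and 9.02 in Scr. All 6 other lysosomal peptidase genes were lower (median -0.42), with both P155 libraries below both Scr libraries, as in 19.6% of all genes tested. Among them, Prcp was at 10.50 and 10.33 in P155 and 10.69 and 11.20 in Scr, and Napsa at 8.04 and 8.09 in P155 and 8.60 and 9.08 in Scr.

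Genes of lysosomal delivery and acidification did not share this direction as lists. Of 10 genes in the first list, 5 were lower and 5 higher (median -0.014). Besides delivery genes it held the reductase of antigen processing, the saposin precursor, and the neuraminidase and beta-galactosidase genes Neu1 and Glb1. Psap, the precursor of the saposins, was at 16.88 and 16.69 in P155 and 16.92 and 17.44 in Scr, and Ifi30, the reductase that opens disulfide bonds of antigens, at 10.76 and 10.10 in P155 and 10.45 and 11.71 in Scr. Nagpa, which uncovers the mannose 6-phosphate tag, was at 9.92 and 9.55 in P155, against 9.08 and 8.53 in Scr, with both P155 libraries higher (unadjusted p = 0.0249, limma adjusted p = 0.861). Of 16 genes of the proton pump, 9 were higher and 7 lower (median 0.11). The subunit gene Atp6v0d2 was at 8.19 and 7.45 in P155, against 8.93 and 10.05 in Scr (unadjusted p = 0.0214, limma adjusted p = 0.861), and Atp6v0e at 11.13 and 11.07 in P155 and 11.20 and 11.90 in Scr. Lysosomal membrane proteins were lower in 9 of 11 (median -0.20), with Cd68 at 11.97 and 10.86 in P155 and 11.83 and 12.34 in Scr, and Laptm5 at 13.02 and 12.32 in P155 and 13.16 and 14.00 in Scr.

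Transcription factors of lysosomal and class II genes were lower in 7 of 8 (median -0.31). The exception was Tfeb, at 10.20 and 10.09 in P155, against 10.30 and 9.39 in Scr, where Scr replicate 5 was low and the groups overlapped (log2 difference 0.30, 95% interval -0.61 to 1.20, limma adjusted p = 0.881). Spi1, which encodes PU.1, was at 9.98 and 9.62 in P155, against 10.21 and 10.72 in Scr (log2 difference -0.67, SE 0.26, limma adjusted p = 0.861). Tfec was at 6.17 and 5.12 in P155 and 6.41 and 7.07 in Scr.

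Some reads of these genes cannot be assigned with certainty, because use of strand is not given in the sources used here. Ctsa overlaps 1515 bases of Pltp, a gene on the opposite strand, which had 7244 and 2560 reads in P155 and 8054 and 6384 in Scr, against 12749 and 5080 for Ctsa in P155 and 13193 and 23298 in Scr. Ctsb overlaps 774 bases of Fdft1 on the opposite strand, with 3385 and 1906 reads in P155 and 3315 and 2036 in Scr. GENCODE M21 also places the model Gm49369 over Ctsd on the same strand.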

How the data were processed

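The 10 genes, the gene lists and the tests were chosen with earlier results of these data known. Per the labels' protocols, mRNA was captured on oligo(dT) beads and sequenced by Illumina chemistry, and the submitters' processing notes name bcl2fastq, STAR 2.5.3a, DESeq2 and mm10. The counter, annotation, strand setting and filters were not given in the sources used here. Values are deposited on a log2 scale, which the authors made from reads per gene divided by a size factor plus 1, together with the authors' log2 fold change, p-value and FDR. The values were whole reads (100% within 1e-06) times 1 step per library, with size factors of 0.592 to 1.23.

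The 27079 genes that reached a normalized value of 1 in 2 or more libraries were compared by limma 3.58.1 with a mean-variance trend (R 4.3.3), with two-sided p-values adjusted by Benjamini-Hochberg across the whole table, called under 0.05. The script was tested on simulated data with changes larger than those of the 10 genes. That test does not show whether changes of their size would be found. Named genes were the 10 members, up to 2 genes of each pathway list with the smallest p and a mean of at least 50 normalized reads, and Cst3, Cd74, Ifi30 and Tfeb. Ctse, Ctsg, Chil3, Ly6c2, Kit and Apoe were named outside this rule, as genes that depart from the summary of their list. Lengths and coordinates are from GENCODE M21, which holds 32168 of the identifiers, and promoters from RefSeq. Alternatives were the replicate block, leaving out each library, library size scaling, quantile normalization, no filter, a mean of at least 50, a pseudocount of 0.1, a robust prior, limma-voom, 3 marker references and coding length.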

Additional observations from a re-analysis of the deposited data

How the results depend on the processing

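Under scaling by library size, quantile normalization, no filter, a stricter filter, a pseudocount of 0.1, a robust prior, limma-voom and the replicate block, 9 of the 10 genes stayed lower, Ctsf stayed higher, and 0 genes passed, with adjusted p-values of the 10 between 0.746 and 0.948 (limma). The median of the 10 was between -0.44 and -0.43 in these fits. The labels do not say what the replicate numbers mark, so the numbers were not treated as pairs. Deviations of same-numbered libraries had a correlation of 0.071, or 0.094 over the more abundant genes. With 2 libraries per group this cannot show whether they were paired. With the replicate block 0 genes passed and 1195 had an unadjusted p under 0.05, against 1179 without it. Leaving out 1 library gave a median of the 10 between -0.76 and -0.14, 8 to 9 genes lower and 5 to 10 genes without overlap, which 3 libraries reach more easily (58.8% to 73.6% of all genes). Ctsh then ranged from -0.81 to 0.099, above 0 without P155 replicate 5. The number of genes at an unadjusted p under 0.05 was 782 to 3286 when 1 library was left out, 598 with the stricter filter, which tests fewer genes, 5270 against pan-leukocyte markers and 11757 against monocyte and macrophage markers.

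The marker references shift every gene by 1 number per library, so the direction of a gene depended on the reference. Against pan-leukocyte markers 467 genes passed, 1 of them in the pathway lists, 2 of the 10 genes were lower, and the median was 0.24, with Ctsa at 0.088, Ctsb at 0.19, Ctsd at 0.21, Ctsc at 0.28, Ctsh at 0.33, Ctsl at 0.47 and Lgmn at 0.48. Against microglia markers the median was -0.072, Ctsh stood at 0.015, Ctsl at 0.16 and Lgmn at 0.16, and 1 gene, Ctsf, had no overlap and lay above, as 38.7% of all genes did, while 7.87% lay below. Against monocyte and macrophage markers 7084 genes passed, 21 in the pathway lists, 0 of the 10 were lower and 3 lay above with no overlap, against 65.1% of all genes, with a median of 0.38 and values of 0.062 for Ctsz, 0.072 for Ctss, 0.23 for Ctsa, 0.33 for Ctsb, 0.35 for Ctsd, 0.42 for Ctsc, 0.47 for Ctsh, 0.61 for Ctsl and 0.62 for Lgmn. With coding length 6 of the 10 genes kept their rank.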
